A study of Mus musculus with 30 samples.

Results

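Lysosome and autophagy genes were followed in B cells of mouse spleen with and without Irf4, a transcription factor which activated B cells need to become plasma cells. The set held 47 of the 18193 genes named on the array: lysosomal hydrolases, lysosomal membrane proteins, subunits of the lysosomal proton pump, transcription factors of the MiT/TFE family, and autophagy genes. It was drawn up by gene name, and each gene was read by the probe set of highest mean among those annotated to that gene alone. Of the 47 genes, 46 passed the filter on low signal (at least 3 of 30 arrays above 188.2, the median of the table). Mitf did not pass, since it exceeded that median on 0 of 30 arrays, and it was not tested. Its mean over the 30 arrays was 6.71 on the scale used throughout, log2(intensity + 16), which understates changes of dim genes.

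RNA was hybridised to 30 Affymetrix arrays in 10 groups of 3. All mice carried the C57BL/6, B1-8i background. KO cells came from Irf4-/- mice with a doxycycline-inducible Irf4 gene. They were taken at day 0 without stimulation, and at days 1 and 3 of culture with CD40L, IL-2, IL-4 and IL-5 and doxycycline (DOX) at 0 (zero), 16 (low) or 100 ng/mL (high). WT cells came from Irf4+/+ mice and were taken at days 0, 1 and 3 of the same stimulation, with no doxycycline given in their labels. Each replicate was 1 mouse, per the series text. The labels name neither the promoter of the inducible gene nor which mice each KO culture came from.

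A lysosome is an acidic compartment in which proteases, glycosidases, sulfatases and lipases digest material delivered from the cell surface or by autophagy. A rotary proton pump, the vacuolar ATPase, acidifies it. In autophagy a double membrane grows around cytoplasm, is decorated with lipid-linked proteins of the Atg8 family, and fuses with lysosomes. TFEB and its relatives TFE3 and MITF switch on many of these genes through E-box motifs in their promoters. In B cells lysosomal proteases also cut antigen and the invariant chain so that MHC class II can be loaded with peptide, and autophagy is known to sustain plasma cells.

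Several features of the arrays bear on all that follows. Of a pair of Irf4 probe sets, one followed doxycycline, at 7.68, 7.34 and 7.49 with zero DOX, 13.09, 12.94 and 13.00 with low DOX and 13.66, 13.56 and 13.53 with high DOX at day 3. In WT cells it read between 7.23 and 8.07, so it did not read the intact gene. The other set read 12.41 to 12.78 in KO and 13.14 to 13.22 in WT cells at day 0, 11.96 to 12.20 in KO zero DOX and 11.66 to 11.76 in WT cells at day 1, and 10.89 to 11.44 in KO zero DOX and 10.77 to 10.88 in WT cells at day 3. The genotypes did not overlap within a day, but KO lay lower at day 0 and higher at days 1 and 3, so that neither set showed the loss of the gene on all days. At day 1 the first set read 10.77 on the array labelled zero DOX replicate 2, against 7.84 and 7.80 on the other zero DOX arrays, and 7.69 on the array labelled low DOX replicate 2, against 11.17 and 10.89. Both labels are therefore doubted, and counts of members that use them are given with and without these arrays. Among KO day 0 arrays, replicate 2 stood apart in the Gapdh control (3' minus 5' log2 difference of 0.25, against -0.083 to 0.044 on the other 29 arrays), and replicate 3 had the lowest array weight, 0.254. Xist and Y-linked transcripts showed a male pattern on KO replicates 1 and 2 and a female pattern on KO replicate 3 and all WT arrays.

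The cells carried 5 tested B cell markers (Cd79a, Cd79b, Ms4a1, Pax5 and Cd22), whose summed intensity lay between 14.95 and 15.91 in log2 units on the 30 arrays. Markers of myeloid cells were also present and differed between groups. On the log2 scale the sum of 15 tested myeloid markers was 13.00 to 14.18 in KO and 11.94 to 12.05 in WT cells at day 0, 12.75 to 13.16 in KO zero DOX and 11.35 to 11.54 in WT cells at day 1, and 13.31 to 14.21 in KO zero DOX and 11.61 to 11.76 in WT cells at day 3. With low and high DOX at day 3 it was 12.17 to 12.90 and 11.44 to 11.82. The summed NK cell markers (7 tested) were 12.39 to 13.26 with zero, 12.00 to 12.79 with low and 10.33 to 10.98 with high DOX, against 10.75 to 11.31 in WT cells at day 3. The 5 B cell markers were all called lower with high than with zero DOX (median -0.75), and plasma cell markers (6 tested) ran the other way, with 12.83 to 13.03, 14.24 to 14.64 and 14.82 to 14.98 across the 3 doses and 14.61 to 14.66 in WT cells. Myeloid cells are rich in lysosomal enzymes. The part of any of these cell types in the results was not tested, and in such mixed RNA fewer cells of a type and less RNA per cell cannot be told apart.

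The promoters were searched for the E-box core CACGTG, which MiT/TFE factors recognise, for TCACGTGA, and for TCACGTGA flanked by G on its left and C on its right. Each longer form contains the shorter ones, and all read the same on both strands. RefSeq promoters of build GRCm38.p6 (250 bases before to 50 after each start) were at hand for 37 of the 47 genes. The core was present in 14 of the 37 (37.8%), against 8.09% of all 27025 genes with a promoter in that table, and TCACGTGA in 7 (18.9%), against 1.12%. The flanked form was in 0 of the 37, against 0.37% of all genes. These shares are descriptions, a match is not a binding site, and several promoters of 1 gene were counted as 1 gene. Shown are the 4 promoters with a core whose genes differed most between KO zero DOX and WT cells at day 3, 5' to 3', with the motif in capitals.
Ctsl, chr13:64370471-64370770, minus strand: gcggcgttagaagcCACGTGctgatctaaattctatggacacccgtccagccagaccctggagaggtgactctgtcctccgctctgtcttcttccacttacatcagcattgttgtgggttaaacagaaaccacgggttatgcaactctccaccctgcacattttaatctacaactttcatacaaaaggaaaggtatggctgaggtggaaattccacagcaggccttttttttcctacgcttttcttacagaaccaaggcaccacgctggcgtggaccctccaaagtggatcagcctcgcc
Glb1, chr9:114400828-114401127, plus strand: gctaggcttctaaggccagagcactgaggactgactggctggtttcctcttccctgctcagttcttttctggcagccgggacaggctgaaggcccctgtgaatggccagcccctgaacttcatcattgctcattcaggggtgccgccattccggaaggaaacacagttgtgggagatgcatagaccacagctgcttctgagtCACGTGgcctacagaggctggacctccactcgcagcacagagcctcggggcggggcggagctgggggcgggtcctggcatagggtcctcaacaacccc
Ctsd, chr7:142387778-142388077, minus strand: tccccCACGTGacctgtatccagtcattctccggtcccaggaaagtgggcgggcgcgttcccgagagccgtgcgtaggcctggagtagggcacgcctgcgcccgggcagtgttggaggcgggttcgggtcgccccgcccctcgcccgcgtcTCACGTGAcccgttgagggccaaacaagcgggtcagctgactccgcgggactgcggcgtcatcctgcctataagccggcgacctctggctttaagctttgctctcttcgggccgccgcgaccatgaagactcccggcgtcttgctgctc
Gla, chrX:134600956-134601255, minus strand: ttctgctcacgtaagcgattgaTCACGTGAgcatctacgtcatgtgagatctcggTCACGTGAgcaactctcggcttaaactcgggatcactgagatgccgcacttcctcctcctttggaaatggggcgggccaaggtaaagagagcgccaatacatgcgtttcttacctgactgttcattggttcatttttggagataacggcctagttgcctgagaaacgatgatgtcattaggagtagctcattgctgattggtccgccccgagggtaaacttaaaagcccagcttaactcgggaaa
The single core lay 236 bases before the start of Ctsl and 48 before that of Glb1 (offsets of -236 and -48). Ctsd held 2 cores, at -245 and -98, of which the nearer lay in a TCACGTGA. Both cores of Gla, at -227 and -194, lay in a TCACGTGA. Of these genes, chosen for their difference, Ctsl was higher in KO cells at day 3 and Glb1 lower; the calls of Ctsd (higher) and Gla (lower) were lost without single arrays, as given with their values.

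The levels were highest in unstimulated cells for most genes. The highest group mean fell in unstimulated cells for 25 genes (KO day 0 for 17 and WT day 0 for 8), in WT day 3 cells for 7 and in KO zero DOX day 3 cells for 6. WT day 1 cells held the lowest mean of 16 genes, and KO zero DOX and KO high DOX cells at day 1 of 7 each.

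**Figure D1:**
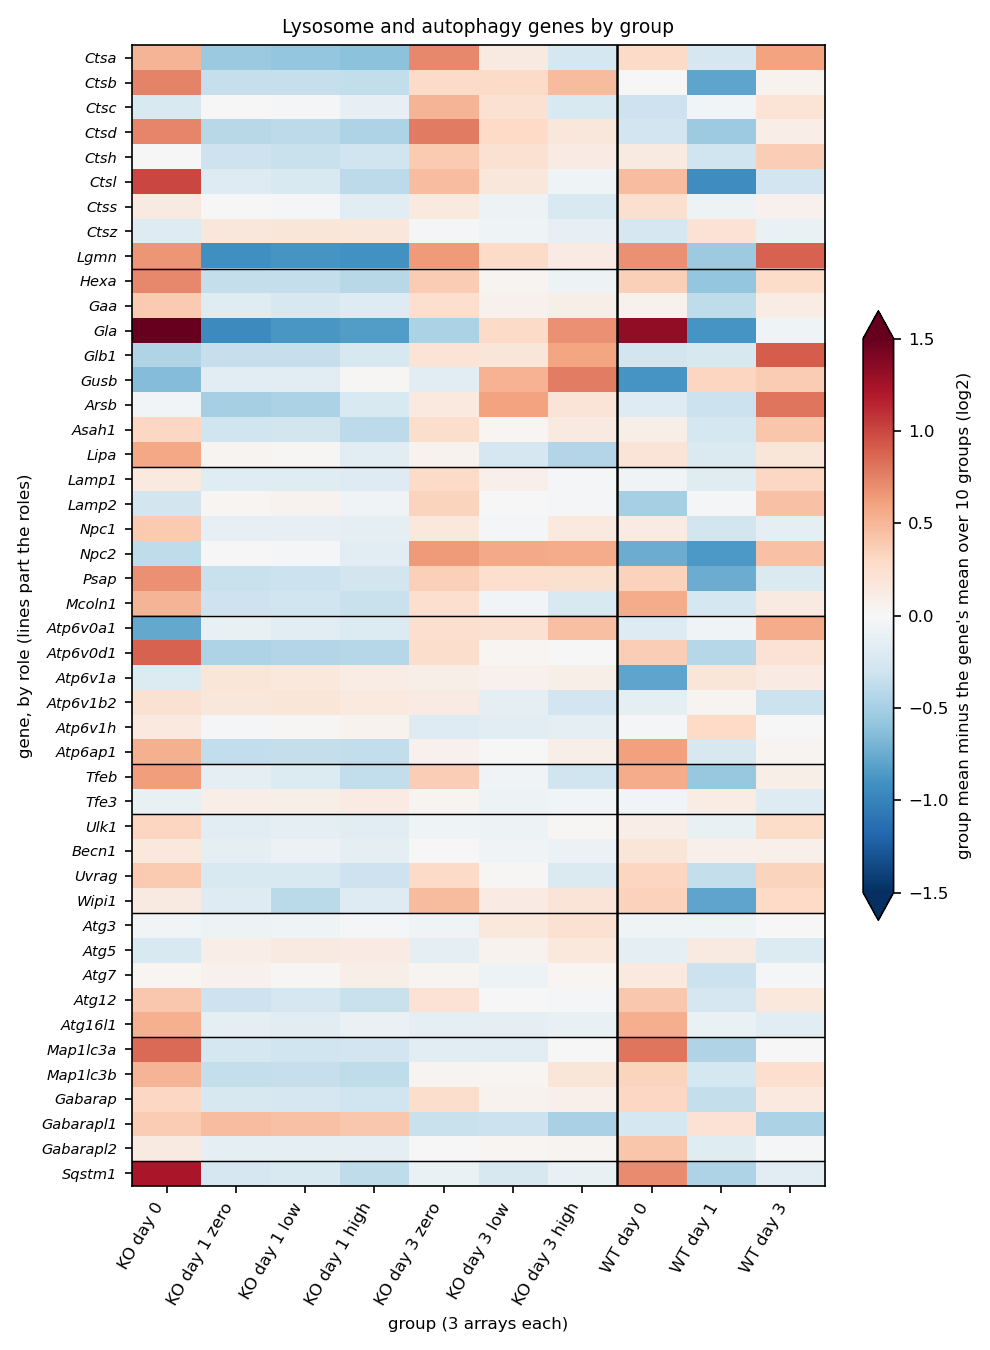
Group means of 46 lysosome and autophagy genes (rows, by role) in 10 groups of 3 arrays (columns, KO left of WT), each minus the gene's own mean over the groups, in log2 units, with colours saturating at 1.5. The day 0 columns hold the highest mean of 25 genes, and the WT day 1 column the lowest of 16.

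In WT cells, stimulation lowered most of the genes within a day. At day 1 against day 0, 10 of 46 rose and 28 fell, a median change of -0.42, while 81.5% of all 12183 tested genes changed (33.9% rose and 47.6% fell) and their median change was -0.15. Centring each array on its median moved the median of all genes to 0.01 and gave 13 members higher and 26 lower. Markers of other cells fell in the same step, 5 of 5 for T cells (sum of 10.14 to 10.19 at day 1, against 10.95 to 11.23 at day 0), 5 of 7 for NK cells (9.75 to 10.18 at day 1, against 10.62 to 10.97 at day 0) and 8 of 15 for myeloid cells. The B cell markers Cd79a (-1.20), Cd22 (-0.72), Ms4a1 (-0.22) and Cd79b (-0.21) fell too, while Pax5 rose (0.72). Of the plasma cell markers Xbp1 rose (0.70) and the others fell. The dendritic cell markers Zbtb46 (2.475) and Bst2 (1.515) rose, while Flt3 (-1.23), Siglech (-0.83) and Itgax (-0.74) fell. The part of these cells was not tested. Between days 1 and 3 the direction turned: 34 members rose and 6 fell, with a median change of 0.45, beside 69.4% of all genes (43.3% higher, 26.2% lower, median 0.12). With centring it was 29 and 7, and the median of all genes was -0.01. At day 3 against day 0, 13 stood higher and 16 lower, beside 65.3% of all genes (33.4% higher, 31.9% lower).

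Among the proteases of WT cells, 6 of 9 fell by day 1 and 8 of 9 rose between days 1 and 3. Lgmn, the asparaginyl endopeptidase that cuts antigen and activates cathepsins, read 11.60, 11.72 and 11.67 at day 0, 10.47, 10.38 and 10.49 at day 1, and 11.78, 11.99 and 11.86 at day 3. All arrays of day 1 lay below those of the other days, and the steps were -1.22 ± 0.13 (SE; adjusted p = 1.14e-08) and 1.43 ± 0.13 (adjusted p = 1.97e-09). Ctsl, a cysteine protease, read 9.10, 9.13 and 9.31, then 7.78, 7.80 and 7.80, then 8.43, 8.54 and 8.31, which at day 3 was still 0.75 below day 0 (difference of -0.75 ± 0.17, adjusted p = 0.000534). Ctsz, a carboxypeptidase, rose instead, at 13.12, 13.18 and 13.05 at day 0, 13.60, 13.61 and 13.54 at day 1 and 13.29, 13.30 and 13.22 at day 3 (day 1 against day 0, 0.47 ± 0.04, adjusted p = 7.10e-10). For Ctsc, the dipeptidyl peptidase that activates granule proteases, the brightest probe set rose by 0.26 ± 0.08 at day 1 (adjusted p = 0.00644) and by 0.52 ± 0.08 at day 3 (adjusted p = 9.15e-06), but its 2 dimmer sets went the other way at day 1 (-2.84 and -2.12) and at day 3 (-1.52 and -0.87), so that no direction is given for the gene.

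The other hydrolases parted over the course. Gla, which removes terminal galactose from glycolipids, had the largest fall of any member: it read 10.07, 10.12 and 10.46 at day 0, 7.88, 8.03 and 8.07 at day 1, and 8.79, 8.85 and 8.83 at day 3. The days did not overlap (day 1 against day 0, -2.22 ± 0.16, adjusted p = 4.12e-12; day 3 against day 0, -1.39 ± 0.16, adjusted p = 3.05e-08), and its other 2 tested sets fell further, by -3.95 and -5.05 at day 1. Glb1, the lysosomal beta-galactosidase, instead stayed at 9.88, 9.84 and 9.79 and then 9.83, 9.84 and 9.97, and stood at 11.01, 11.11 and 10.94 at day 3. Its rise came after day 1 (day 3 against day 0, 1.19 ± 0.07, adjusted p = 7.77e-14). Arsb, a sulfatase of dermatan sulfate, followed the same course with 9.56, 9.52 and 9.47, then 9.33, 9.43 and 9.41, then 10.48, 10.52 and 10.55 (day 3 against day 0, 1.00 ± 0.12, adjusted p = 4.80e-08). Gusb, the beta-glucuronidase, was already up at day 1: 9.40, 9.33 and 9.12 at day 0, 10.45, 10.50 and 10.51 at day 1 and 10.56, 10.56 and 10.53 at day 3. The step was 1.21 ± 0.07 (adjusted p = 2.96e-14), but a dimmer Gusb set fell by 0.29 (-0.29) at day 1 and rose by 0.29 only at day 3. Hexa, Gaa, Asah1 and Lipa, which act on gangliosides, glycogen, ceramide and cholesteryl esters, all fell at day 1 and rose again by day 3.

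Membrane and lipid-handling genes also split. Npc2, the soluble cholesterol carrier, read 12.01, 12.06 and 12.02 at day 0, 11.97, 11.86 and 11.90 at day 1, and 13.20, 13.22 and 13.22 at day 3, a rise of 1.18 ± 0.10 over the whole course (adjusted p = 3.24e-10). Lamp2, an abundant glycoprotein of the lysosomal membrane, rose at each step, with 11.31, 11.28 and 11.25, then 11.68, 11.78 and 11.83, then 12.19, 12.24 and 12.24 (day 3 against day 0, 0.94 ± 0.07, adjusted p = 2.42e-11). Psap, the precursor of the saposins that help enzymes reach sphingolipids, fell to 11.88, 11.94 and 11.97 at day 1, against 13.01, 13.06 and 12.98 at day 0, and stood at 12.39, 12.49 and 12.48 at day 3. Its day 1 change was -1.09 ± 0.11 (adjusted p = 1.82e-09). Subunits of the proton pump did not move as 1 block. Atp6v1a, the catalytic subunit, rose to 10.85, 10.77 and 10.76 at day 1, against 9.87, 9.83 and 9.76 at day 0 (0.97 ± 0.08, adjusted p = 2.25e-10). Atp6v0a1, of the membrane sector, rose only later (day 3 against day 0, 0.75 ± 0.11, adjusted p = 3.07e-06), and the accessory subunit Atp6ap1 stood lower at day 3 (-0.57 ± 0.05, adjusted p = 1.61e-09). For Atp6v1h, a regulatory subunit, the brightest set rose by 0.32 at day 1 while a dimmer one changed by -2.35, and no direction is given.

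Tfeb, the master regulator of lysosomal genes, dipped and partly returned. It read 10.46, 10.59 and 10.38 in WT cells at day 0, 9.28, 9.33 and 9.44 at day 1 and 9.97, 10.03 and 10.04 at day 3. These values do not overlap between days, and the changes from day 0 were -1.13 ± 0.08 (adjusted p = 6.92e-12) and -0.47 ± 0.08 (adjusted p = 2.47e-05). Its relative Tfe3 moved little and the other way, by 0.16 ± 0.07 at day 1 (adjusted p = 0.0328), a call lost when any of 4 single arrays was left out (lowest 0.13). Between days 1 and 3 Tfe3 fell (-0.30 ± 0.07, adjusted p = 0.000359).

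The autophagy genes shared the fall at day 1. Of the Atg8 family, 4 of 5 fell. Map1lc3a, which codes for 1 of the LC3 proteins, read 11.15, 11.13 and 11.28 at day 0, 9.88, 9.93 and 9.99 at day 1 and 10.36, 10.34 and 10.40 at day 3 (day 1 against day 0, -1.25 ± 0.08, adjusted p = 2.52e-13). Map1lc3b, Gabarap and Gabarapl2 fell by less, with changes of -0.59, -0.67 and -0.60 and adjusted p of at most 6.45e-09. Gabarapl1 was the exception: 9.74, 9.69 and 9.83 at day 0, 10.35, 10.21 and 10.11 at day 1 and 9.50, 9.52 and 9.56 at day 3, so that it rose (0.47 ± 0.09, adjusted p = 5.29e-05) and then fell (-0.69 ± 0.09, adjusted p = 4.97e-07). Sqstm1, the receptor p62 that carries cargo into autophagosomes, read 11.88, 12.04 and 12.13, then 10.84, 10.79 and 10.92, then 11.13, 11.16 and 11.12. Its day 1 change was -1.16 ± 0.09 (adjusted p = 3.37e-11) and its day 3 change -0.88 ± 0.09 (adjusted p = 9.02e-09). Among genes that start the membrane, Wipi1 read 9.32, 9.93 and 10.20 at day 0 and 8.49, 8.96 and 8.59 at day 1 (-1.14 ± 0.28, adjusted p = 0.000668), with a wide spread in every group. Of the conjugation genes Atg5 rose (0.27 ± 0.06, adjusted p = 0.000367), Atg3 did not pass the test, and Atg16l1, which directs the lipid transfer, fell and stayed low (day 3 against day 0, -0.72 ± 0.05, adjusted p = 1.69e-11). For Atg7 and Atg12, which fell, a dimmer set of each rose.

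Most members also fell in KO cells without doxycycline. At day 1 against day 0, 9 of 46 rose and 30 fell (8 and 30 without the doubted zero DOX array), beside 69.8% of all genes (39.8% higher, 30.1% lower). The median change was -0.50 for the members and 0.06 for all genes. Of the markers of other cells 8 of 15 myeloid, 4 of 5 T cell and 6 of 7 NK cell genes fell in this step as well. The mean of the myeloid marker Chil3 instead rose from 8.29 to 9.87. The dendritic cell markers Bst2 (2.69) and Zbtb46 (1.90) rose, while Flt3 (-0.99), Itgax (-0.83) and Siglech (-0.80) fell. Of the B cell markers Cd79a (-1.02) and Cd22 (-0.68) fell and Cd79b rose (0.17). The part of these cells was not tested. At day 3 against day 0, 11 stood higher and 19 lower, beside 62.4% of all genes (36% higher, 26.4% lower). Gla read 11.05, 10.74 and 10.20 at day 0, 8.01, 7.97 and 7.82 at day 1, and 8.60, 8.51 and 8.12 at day 3 in KO cells (day 3 against day 0, -2.25 ± 0.16, adjusted p = 6.61e-12). For Sqstm1 the readings were 12.58, 12.67 and 12.36, then 11.11, 11.09 and 10.98, then 11.21, 11.35 and 11.07, so that the day 3 arrays stayed near those of day 1 (-1.33 ± 0.09 from day 0, adjusted p = 5.88e-12). The pump subunit Atp6v0d1 also fell, with no overlap between days 1 and 0 (-1.34 ± 0.09, adjusted p = 5.32e-13). Npc2 had already risen at day 1 in KO cells, at 12.86, 12.92 and 12.52, against 12.48, 12.53 and 12.20 at day 0, though replicate 3 at day 1 reached only the level of the highest day 0 arrays and a dimmer set fell (-0.34).

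**Figure D2:**
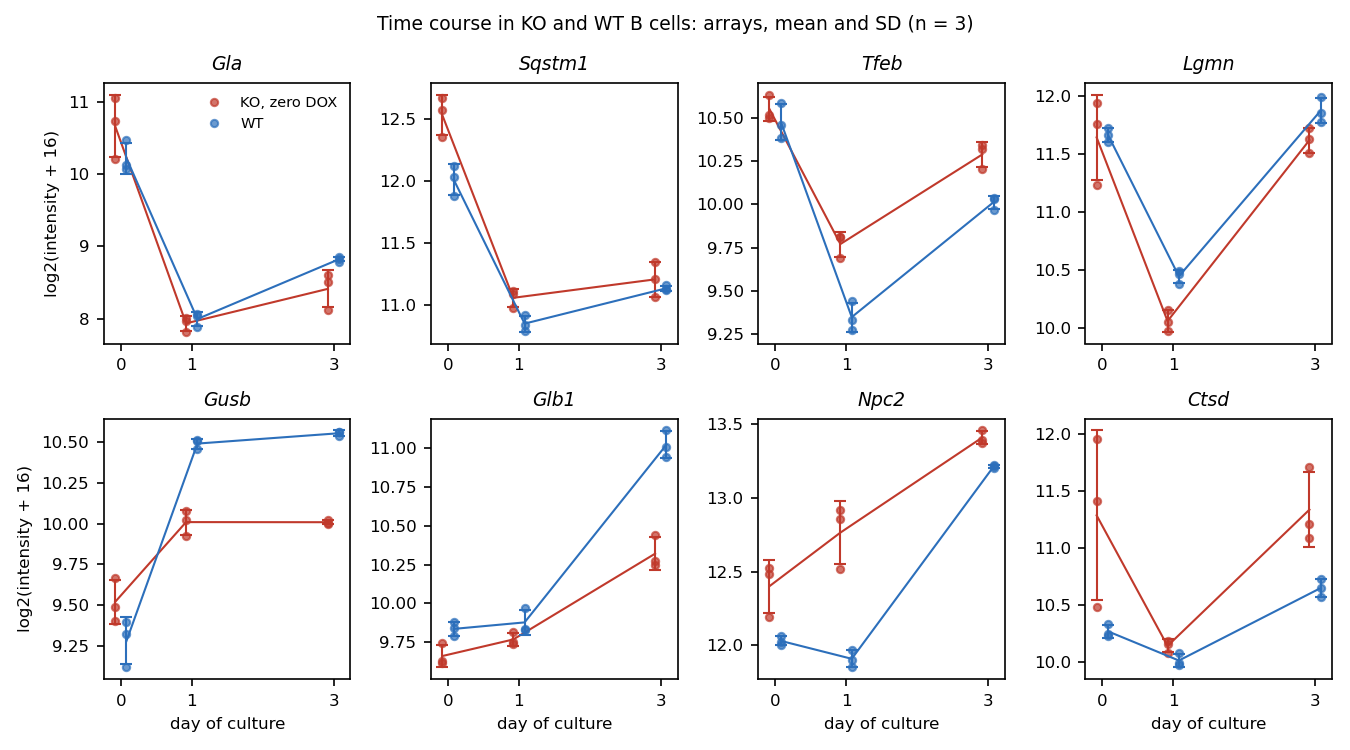
Levels of 8 genes (panels; y axis, log2(intensity + 16)) by day of culture in KO cells with zero DOX and in WT cells. Points are arrays, lines join means and bars are SD (n = 3); Gla, Sqstm1, Tfeb and Lgmn dip at day 1 in both genotypes, while Gusb and Glb1 end lower in KO than in WT cells.

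The change from day 0 to day 3 itself differed between the genotypes for 16 of 46 members by the interaction of genotype and day, 3 higher and 13 lower in KO, beside 25.9% of all genes (16% higher, 9.95% lower). The hydrolases gave 5 of these, all lower. Gusb gained 0.49 in KO and 1.27 in WT cells (interaction -0.78 ± 0.09, adjusted p = 2.73e-06), but its dimmer probe set gave 0.00 (adjusted p = 0.993). Arsb gained 1.00 in WT cells and did not pass the test in KO cells (0.18; interaction -0.82 ± 0.16, adjusted p = 0.000726). The interaction of Gla (-0.86 ± 0.22, adjusted p = 0.00604) was -0.29 with an adjusted p of 0.297 when all its probe sets were averaged.

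In unstimulated cells the members that passed the test were mostly higher in KO than in WT. At day 0, 19 of 46 were higher, 3 lower and 24 not called, beside 31.5% of all genes called (13.1% higher, 18.4% lower), with a median difference of 0.17 for the members and -0.05 for all genes. Counts were 13 without KO replicate 2 and 3 when only these 2 groups were fitted. Ctsd, the aspartic protease, read 11.42, 11.96 and 10.48 in KO cells, against 10.24, 10.23 and 10.33 in WT cells. All KO arrays lay above all WT arrays, by 1.02 ± 0.21 (adjusted p = 0.000842), and the 3 KO arrays kept the order of their summed myeloid markers, 13.77, 14.18 and 13.00. Ctsb, a cysteine protease, showed the same order, with 12.72, 13.01 and 11.83 in KO, against 11.76, 11.82 and 11.77 in WT cells (0.74 ± 0.16, adjusted p = 0.00139). Of the 15 myeloid markers 12 were higher and 0 lower in KO cells at day 0. The plasma cell sum was lower in KO, at 12.11 to 12.51, against 13.73 to 14.23 in WT cells. Jchain differed most of these markers (-7.05), and Sdc1 (-2.78) and Tnfrsf17 (-0.93) were lower too. Prdm1 (0.25), Xbp1 (-0.09) and Bhlha15 (-0.04) were not called. NK cell and platelet sums were higher in KO (11.82 to 12.11 and 10.58 to 10.86, against 10.62 to 10.97 and 10.19 to 10.47 in WT). The T cell markers Cd3g and Cd3d were called higher, as were Itgax, Zbtb46 and Siglech of the dendritic cell markers. The other T cell and dendritic cell markers were not called. The part of these cells was not tested.

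Other members differed at day 0 with less spread over the KO arrays. Gabarapl1 read 10.66, 10.31 and 10.19 in KO, against 9.74, 9.69 and 9.83 in WT cells, without overlap (0.64 ± 0.09, adjusted p = 1.50e-05). Sqstm1 stood at 12.58, 12.67 and 12.36 in KO, against 11.88, 12.04 and 12.13 in WT cells (0.52 ± 0.09, adjusted p = 0.00015). Atp6v1a was at 10.41, 10.65 and 10.17 in KO, against 9.87, 9.83 and 9.76 in WT cells (0.59 ± 0.08, adjusted p = 1.58e-05), and Atp6v0d1 was 0.51 ± 0.08 higher. Lipa (0.40) and Npc2 (0.37) were higher too, Npc2 no longer called without KO replicate 2 (0.31, adjusted p = 0.0524). The KO arrays of Sqstm1, Atp6v1a, Lipa and Npc2 kept the order of the myeloid sum as well, with replicate 2 highest and replicate 3 lowest, while those of Gabarapl1 and Atp6v0d1 had replicate 1 highest. Replicate 2 also stood apart in the Gapdh control, and replicate 3 in array weight and sex pattern. The order of 3 arrays, here and in Ctsd and Ctsb, cannot tell these apart from the myeloid sum. On the other side, Atp6v0a1 read 7.94, 8.28 and 8.65 in KO, against 8.94, 8.74 and 8.93 in WT cells (-0.58 ± 0.11, adjusted p = 0.000447), and Gabarapl2 11.33, 11.09 and 11.30 in KO, against 11.53, 11.61 and 11.43 in WT cells (-0.29 ± 0.06, adjusted p = 0.00139). Glb1 was lower by a margin (-0.17 ± 0.07, adjusted p = 0.0441) that any of 4 arrays decided. Tfeb (0.07) and Tfe3 (-0.07) did not pass the test.

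After a day of stimulation 12 members were higher and 6 lower in KO zero DOX than in WT cells, beside 49.6% of all genes called (33.9% higher, 15.7% lower). Centring each array on its median gave 4 higher and 15 lower, so the direction of the set as a whole depends on scaling; the median of all genes was 0.07 without and -0.07 with it. Without both doubted arrays 12 members were called, and without KO replicate 1 only 9 were, without WT replicates 1, 2 and 3 in turn 10, 11 and 11. Markers of other cells were higher in KO too: 14 of 15 myeloid, 5 of 5 T cell, 4 of 7 NK cell and 3 of 5 dendritic cell markers. The summed T cell markers were 10.65 to 10.84 in KO and 10.14 to 10.19 in WT cells, the NK cell sum 10.54 to 10.81 in KO and 9.75 to 10.18 in WT cells, and the dendritic cell sum 12.95 to 13.14 in KO and 11.76 to 12.05 in WT cells. Their part in the members' differences was not tested. Npc2 differed most: it read 12.86, 12.92 and 12.52 in KO, against 11.97, 11.86 and 11.90 in WT cells (0.86 ± 0.10, adjusted p = 8.11e-07). Ctsl read 8.47, 8.79 and 8.32 in KO, against 7.78, 7.80 and 7.80 in WT cells (0.74 ± 0.17, adjusted p = 0.00134), and Tfeb 9.81, 9.81 and 9.69 in KO, against 9.28, 9.33 and 9.44 in WT cells (0.42 ± 0.08, adjusted p = 0.000234). In these genes no KO array overlapped a WT array. Gusb was the most lowered, at 10.02, 9.93 and 10.08 in KO, against 10.45, 10.50 and 10.51 in WT cells (-0.48 ± 0.07, adjusted p = 4.80e-06). Atp6v1h (-0.33), Ctsa (-0.31) and Lgmn (-0.39) were lower as well, Lgmn losing its call without KO replicate 1 or without WT replicate 1 or 3 (-0.34 to -0.38).

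At day 3, 8 members were higher and 7 lower in KO zero DOX than in WT cells, beside 34.9% of all genes called (19% higher, 15.8% lower), so the share called (32.6%) was near that of all genes and is no result about the set. By role the counts were small, and a difference between roles was not tested. Of the proteases 3 of 9 were higher and 0 lower, and of the membrane and lipid group 2 of 6 were higher and 0 lower. Of the other hydrolases 4 of 8 were lower and 0 higher, 1 of the 4 (Gla) by a margin that single arrays decided.

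The 4 lowered hydrolases were Glb1, Arsb, Gusb and Gla. Glb1 read 10.25, 10.44 and 10.28 in KO, against 11.01, 11.11 and 10.94 in WT cells (-0.70 ± 0.07, adjusted p = 1.50e-08). Arsb read 9.78, 9.76 and 10.05 in KO, against 10.48, 10.52 and 10.55 in WT cells (-0.66 ± 0.12, adjusted p = 9.93e-05). Gusb stood at 10.01, 10.02 and 10.00 in KO, against 10.56, 10.56 and 10.53 in WT cells (-0.54 ± 0.07, adjusted p = 7.79e-07), and its dimmer set was also lower (-0.35). In each of these genes all KO arrays lay below all WT arrays. Gla, at 8.60, 8.51 and 8.12 in KO, against 8.79, 8.85 and 8.83 in WT cells, was called by a narrow margin (-0.41 ± 0.16, adjusted p = 0.0452). That call was lost when any of 5 arrays was left out (-0.27 without KO replicate 3) and when its probe sets were averaged (-0.05), its other sets standing at 0.15 and 0.11.

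Higher in KO cells at day 3 were Ctsl, Ctsd and Psap. Ctsl read 9.17, 9.09 and 9.30 in KO, against 8.43, 8.54 and 8.31 in WT cells (0.76 ± 0.17, adjusted p = 0.00135). Ctsd read 11.21, 11.71 and 11.09 in KO, against 10.57, 10.73 and 10.65 in WT cells (0.69 ± 0.21, adjusted p = 0.0144). Here KO replicate 2 lay highest, as it did in the myeloid sum (13.31, 14.21 and 13.90 in the 3 KO arrays). The full order was not the same, since Ctsd was lowest in replicate 3 and the sum in replicate 1. Without KO replicate 2 the difference in Ctsd was 0.50 with an adjusted p of 0.107. Without WT replicate 1 it was 0.65 (adjusted p = 0.0524), and with a term for sex 0.47 (adjusted p = 0.0592). Psap read 13.03, 13.17 and 12.89 in KO, against 12.39, 12.49 and 12.48 in WT cells, without overlap (0.58 ± 0.11, adjusted p = 0.000175). Of the pump, Atp6v1b2, a subunit of the catalytic sector, was higher at 10.82, 10.76 and 10.76 in KO, against 10.28, 10.41 and 10.31 in WT cells (0.45 ± 0.06, adjusted p = 3.69e-06). Ctsc (0.30 ± 0.08, adjusted p = 0.00672) and the cholesterol exporter Npc1 (0.31 ± 0.07, adjusted p = 0.00199) were higher too, and the dimmer Ctsc sets stood at 1.14 and 0.76. Tfeb read 10.20, 10.34 and 10.32 in KO, against 9.97, 10.03 and 10.04 in WT cells (0.28 ± 0.08, adjusted p = 0.011), and Tfe3 9.11, 9.16 and 9.23 in KO, against 8.84, 9.04 and 8.92 in WT cells (0.23 ± 0.07, adjusted p = 0.00858; 0.19 and no longer called without WT replicate 1). Of the 15 myeloid markers 11 were higher in KO cells. The T cell sum was 10.97 to 11.11 in KO and 10.39 to 10.50 in WT cells, and the dendritic cell sum 12.22 to 12.40 and 11.55 to 11.70. Cd4 and Cd8a of the T cell markers were not called. The dendritic cell markers Itgax (0.86), Bst2 (0.85) and Zbtb46 (0.375) were higher, Flt3 was lower (-0.78) and Siglech was not called (0.08). NK cell and platelet sums were higher in KO cells too (12.39 to 13.26 and 11.45 to 11.91, against 10.75 to 11.31 and 10.31 to 10.74). Of the platelet markers only Pf4 (2.81) and Ppbp (2.09) were called. The plasma cell sum was lower in KO, at 12.83 to 13.03, against 14.61 to 14.66 in WT cells. The part of these cells was not tested.

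Autophagy genes differed little between genotypes at day 3. Ulk1, the kinase that starts autophagy, was lower at 8.48, 8.51 and 8.67 in KO, against 8.86, 8.97 and 8.85 in WT cells (-0.34 ± 0.09, adjusted p = 0.00464). Map1lc3b was lower at 11.95, 12.08 and 11.98 in KO, against 12.21, 12.26 and 12.21 in WT cells (-0.22 ± 0.06, adjusted p = 0.00761). The 5 conjugation genes did not pass the test, with differences between -0.05 and 0.07. Atp6v0a1 (-0.30 ± 0.11, adjusted p = 0.0406) lost its call when any of 5 arrays was left out, at -0.26 to -0.32, and with a term for sex (-0.18, adjusted p = 0.163).

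**Figure D3:**
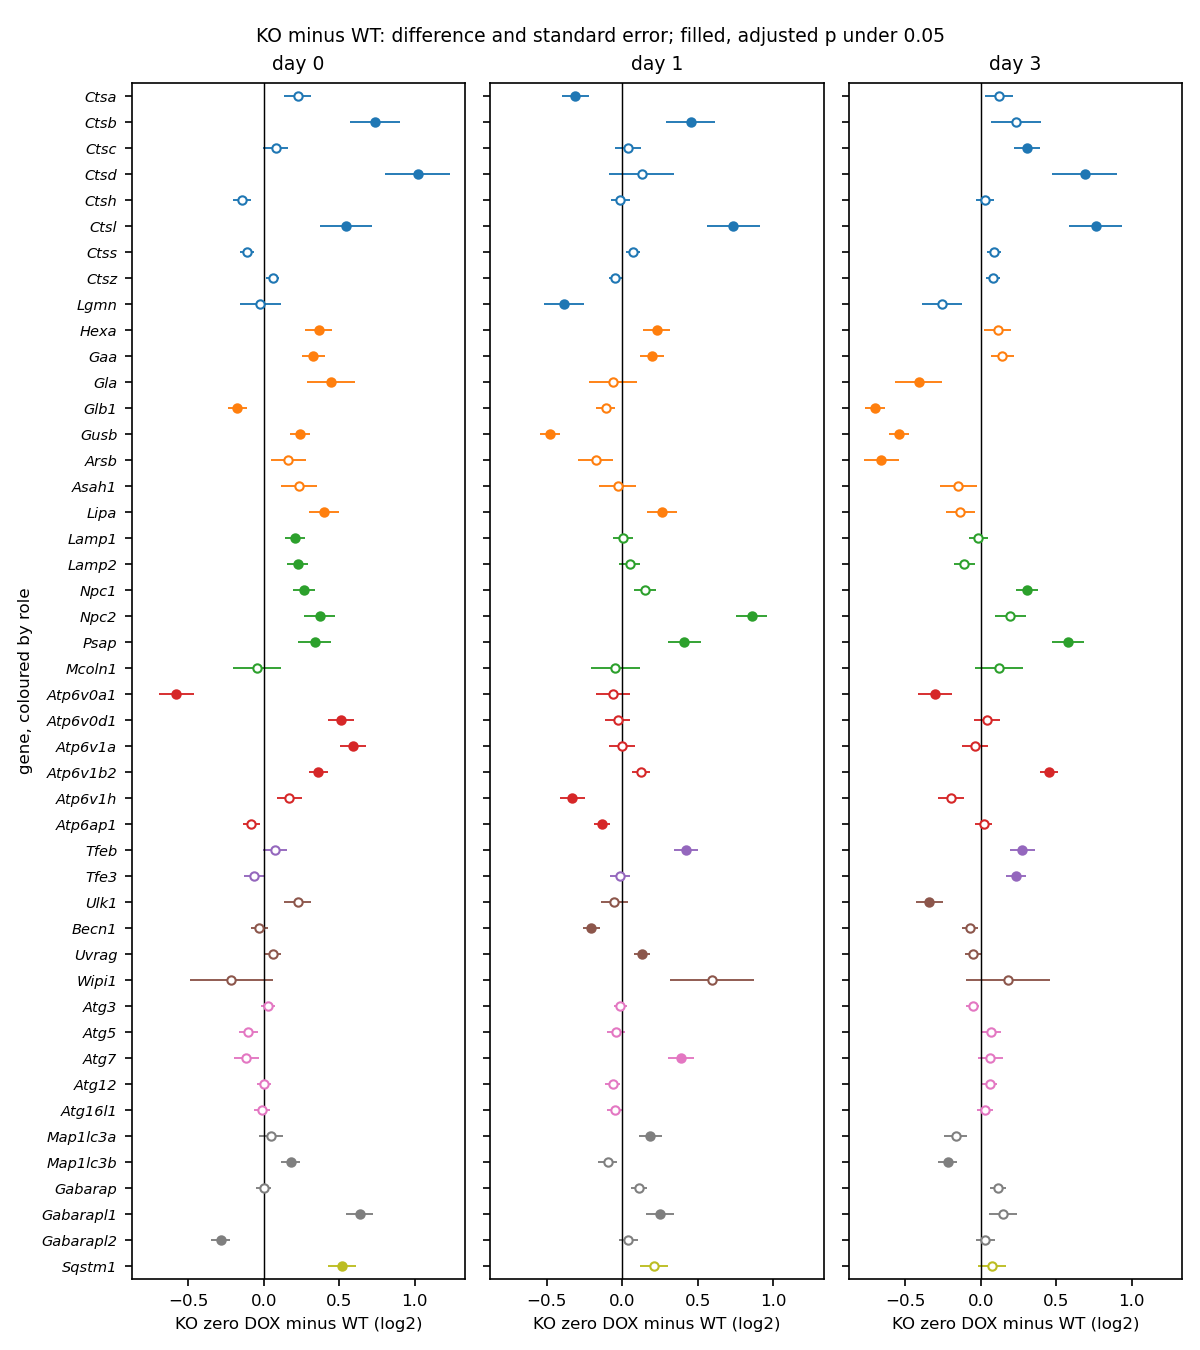
Difference between KO zero DOX and WT cells (x axis, log2, KO minus WT) for 46 genes (rows, coloured by role) at days 0, 1 and 3. Points are fitted differences from 3 against 3 arrays, bars are standard errors and filled points have an adjusted p under 0.05; 19, 12 and 8 filled points lie above 0 and 3, 6 and 7 below.

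A day of doxycycline left no member past the test. With high DOX against zero DOX at day 1, 0 of 46 members were called by limma, beside 2.75% of all genes (1.26% higher, 1.49% lower), and 4 had an unadjusted p under 0.05, beside 11.7% of all genes. The smallest adjusted p was 0.0717, of Ctss (singled out after its values were seen), the protease that trims the invariant chain, at 13.34, 13.45 and 13.35 with high DOX, against 13.53, 13.59 and 13.49 with zero DOX. With the replicate number as a block within the KO arrays, 1 member was called. For low against zero DOX at day 1 the count was 0, as it was for all genes (0% called), and 0 members and 34 of all genes had an unadjusted p under 0.05. Both of these comparisons hold the doubted arrays, and without them the counts were again 0 and 0.

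At day 3 most members called between cells with and without doxycycline were lower with it, though with high DOX the share called was near that of all genes. With high DOX, 5 were higher and 19 lower than with zero DOX, beside 48.6% of all genes called (24.4% higher, 24.2% lower), and the median difference was -0.12 for the members and 0.00 for all genes. With low DOX 5 were higher and 15 lower, beside 35.8% of all genes (17.6% higher, 18.2% lower). Between high and low DOX 2 were higher and 5 lower, beside 12.8% of all genes (6.69% higher, 6.09% lower). That last count was 1 and 6 with centring, 4 without low DOX replicate 2 or 3 or high DOX replicate 1, and 21 when arrays were weighted by quality. High and low DOX share the zero DOX arrays. The proteases took the largest share: 8 of 9 fell with high DOX and 0 rose, with Ctsb alone not called (0.18).

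Ctsa, the carboxypeptidase that also protects beta-galactosidase, read 11.78, 11.96 and 11.92 with zero, 11.18, 11.32 and 11.39 with low and 10.74, 10.98 and 10.97 with high DOX, against 11.64, 11.86 and 11.79 in WT cells. No array of 1 dose overlapped another dose, and high DOX lay below WT as well as below zero DOX (high against zero, -0.99 ± 0.09, adjusted p = 3.26e-09; high against WT, -0.87 ± 0.09, adjusted p = 5.02e-08). A second, far dimmer Ctsa set did not pass the test (-0.06). Ctsc read 13.32, 13.43 and 13.31, then 12.99, 13.20 and 13.04, then 12.44, 12.78 and 12.62 across the doses, against 13.05, 13.04 and 13.05 in WT cells. It fell at each step, by -0.74 ± 0.08 from zero to high DOX (adjusted p = 1.02e-07), and its dimmer sets by -1.78 and -1.76. Lgmn read 11.51, 11.72 and 11.63, then 11.09, 11.42 and 11.30, then 10.89, 11.35 and 11.07, against 11.78, 11.99 and 11.86 in WT cells (high against zero, -0.52 ± 0.13, adjusted p = 0.00245; high against WT, -0.77 ± 0.13, adjusted p = 5.07e-05).

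Ctsd and Ctsl also fell. Ctsd stood at 11.21, 11.71 and 11.09 with zero, 10.74, 11.11 and 10.72 with low and 10.78, 10.84 and 10.56 with high DOX, against 10.57, 10.73 and 10.65 in WT cells. The high DOX difference of -0.61 ± 0.21 (adjusted p = 0.0209) was -0.42 (adjusted p = 0.145) without zero DOX replicate 2 and -0.53 (adjusted p = 0.0804) without high DOX replicate 3. Ctsl read 9.17, 9.09 and 9.30, then 8.89, 8.85 and 8.93, then 8.61, 8.93 and 8.43 (high against zero, -0.53 ± 0.17, adjusted p = 0.0129; -0.42 and adjusted p = 0.0775 without high DOX replicate 3). Lipa, the acid lipase, fell by 0.49 (-0.49 ± 0.10, adjusted p = 0.000193). The myeloid markers fell in the same direction, 11 of 15 lower with high than with zero DOX and 0 higher, and the NK cell markers likewise, 7 of 7. Of 5 tested T cell markers 3 were lower (Cd3d at -0.46, Cd3g at -0.59 and Thy1 at -0.70), and of 5 platelet markers 2 were lower, Pf4 (-4.51) and Ppbp (-4.17), the platelet sum being 11.45 to 11.91 with zero, 10.10 to 10.47 with low and 9.97 to 10.06 with high DOX, against 10.31 to 10.74 in WT cells. The part of these cells in the protease differences was not tested. Against WT cells 5 of 9 proteases were lower with high DOX and 1 was higher. In that comparison 1 of 15 myeloid markers was higher and 1 lower, and 0 of 7 NK markers were called. Of the T cell markers 3 of 5 were higher (Cd3g at 0.97, Cd3d at 0.46 and Cd8a at 0.31), while 4 of 5 B cell and 2 of 5 platelet markers were lower. The plasma cell markers Bhlha15 (1.532), Prdm1 (1.496), Sdc1 (0.658), Tnfrsf17 (0.554) and Xbp1 (0.22) were higher with high DOX, and Jchain was not called (0.034). Of the dendritic cell markers Bst2 was higher (1.034), Flt3 was lower (-0.662) and the others were not called. The part of all these cells was not tested either.

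Tfeb was lower with both doses than with zero DOX, at 10.20, 10.34 and 10.32 with zero, 9.69, 9.97 and 9.94 with low and 9.58, 9.65 and 9.66 with high DOX, against 9.97, 10.03 and 10.04 in WT cells. Its step from low to high DOX was not called. All high DOX arrays lay below all WT arrays and below all zero DOX arrays (-0.39 ± 0.08, adjusted p = 5.00e-04, and -0.66 ± 0.08, adjusted p = 3.93e-07). Tfe3 did not pass the test with high DOX (-0.08). Uvrag, which works with Becn1 in the lipid kinase complex of autophagy and endosomes, read 12.49, 12.44 and 12.46, then 12.18, 12.15 and 12.27, then 11.88, 11.93 and 12.08 across the doses, against 12.47, 12.53 and 12.56 in WT cells. Its arrays did not overlap between doses (high against zero, -0.50 ± 0.05, adjusted p = 2.97e-08; high against low, -0.24 ± 0.05, adjusted p = 0.00346).

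A small group rose with low DOX, with high DOX or with both. Gla read 8.60, 8.51 and 8.12 with zero, 9.39, 9.14 and 8.98 with low and 9.66, 9.60 and 9.46 with high DOX, against 8.79, 8.85 and 8.83 in WT cells, so that all arrays of both doses lay above those of WT cells (high against zero, 1.16 ± 0.16, adjusted p = 1.38e-06; high against WT, 0.75 ± 0.16, adjusted p = 0.000425). This rests on its brightest set, since the other 2 stood at 0.15 and 0.32 and did not pass the test. The step of Gla from low to high DOX was not called. Gusb read 10.01, 10.02 and 10.00, then 10.78, 10.68 and 10.63, then 11.02, 10.88 and 10.91, against 10.56, 10.56 and 10.53 in WT cells. The high DOX difference from zero was 0.93 ± 0.07 (adjusted p = 4.34e-11), with a dimmer set at 0.24 (adjusted p = 0.0132), and the high DOX arrays exceeded WT by 0.39 ± 0.07 (adjusted p = 4.11e-05), which its dimmer set did not show (-0.12, adjusted p = 0.261). Glb1 read 10.25, 10.44 and 10.28, then 10.19, 10.34 and 10.34, then 10.66, 10.78 and 10.66, against 11.01, 11.11 and 10.94 in WT cells. It did not pass the test with low DOX and rose with high DOX (0.38 ± 0.07, adjusted p = 3.03e-05), where all its arrays still lay below those of WT cells. Arsb rose with low DOX, at 10.05, 10.38 and 10.51, against 9.78, 9.76 and 10.05 with zero DOX (0.45 ± 0.12, adjusted p = 0.00356), 1 array of each group being level to 2 decimals. With high DOX it read 9.72, 9.87 and 10.11, which did not pass the test against zero DOX. The mean of Arsb was thus lower with high DOX (9.90) than with low DOX (10.31).

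Of the conjugation genes, Atg3, the enzyme that hands Atg8 proteins to lipid, read 12.22, 12.14 and 12.14 with zero, 12.39, 12.32 and 12.41 with low and 12.47, 12.40 and 12.47 with high DOX, so that it rose with both doses (high against zero, 0.28 ± 0.04, adjusted p = 1.08e-05). Atg5 rose by 0.30 ± 0.06 (adjusted p = 0.000284). Of the Atg8 family only Gabarap was called, lower by a small amount with high DOX (-0.19 ± 0.05, adjusted p = 0.00435) and with low DOX (-0.21 ± 0.05, adjusted p = 0.00261). Sqstm1 stood at 11.21, 11.35 and 11.07 with zero and 11.26, 11.28 and 11.06 with high DOX, and did not pass the test (-0.01).

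**Figure D4:**
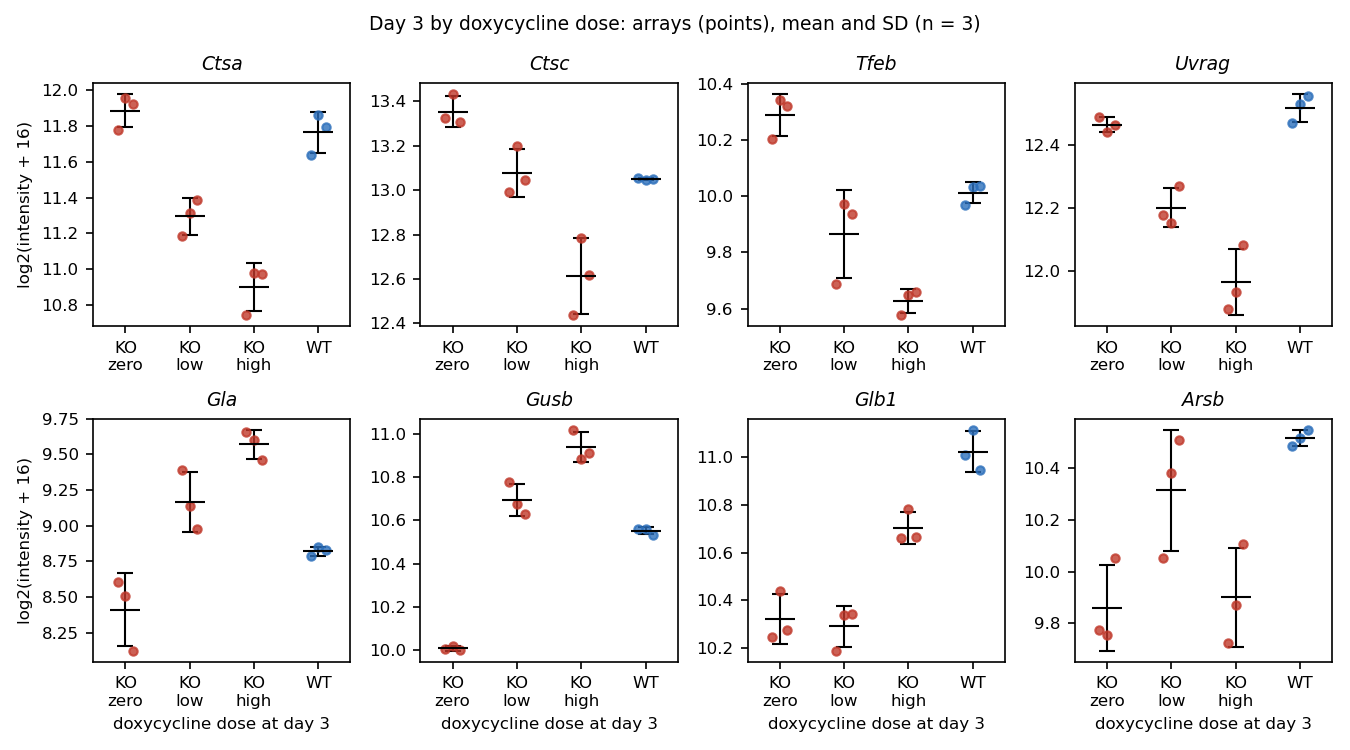
Levels of 8 genes at day 3 (panels; y axis, log2(intensity + 16)) in KO cells with zero, low and high DOX and in WT cells. Points are arrays, horizontal marks are means and bars SD (n = 3). By mean, Ctsa, Ctsc, Tfeb and Uvrag step down with dose, Gla and Gusb step up past WT, and Glb1 stays below WT. The steps of Tfeb and Gla from low to high DOX were not called.

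High DOX cells and WT cells at day 3 still differed in 24 members, 7 higher and 17 lower with high DOX, beside 41.1% of all genes (22.1% higher, 19% lower). The 4 lowest were Ctsa, Lgmn, Lipa (-0.63 ± 0.10, adjusted p = 1.46e-05) and Arsb (-0.62 ± 0.12, adjusted p = 0.000133). Among the highest, Psap stayed at 12.95, 12.94 and 12.83 with high DOX, against 12.39, 12.49 and 12.48 in WT cells (0.45 ± 0.11, adjusted p = 0.00141), and was not called between the doses. Ctsb was also higher (0.41 ± 0.16, adjusted p = 0.0469), a call lost without any 1 of the 6 arrays (0.38 to 0.45) and with a term for sex (0.24, adjusted p = 0.201). The Atg8 genes and Sqstm1 did not pass the test here, with differences between -0.07 and 0.07.

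Genes of neighbouring pathways were read from lists that hold no member. Of 10 MHC class II pathway genes, 10 fell with high against zero DOX at day 3, 9 with low against zero DOX and 8 with high against low DOX. Of all genes 24.2%, 18.2% and 6.09% were called lower in these comparisons, in that order. Ciita, the coactivator of class II genes, fell most (-1.53 ± 0.13, adjusted p = 1.14e-09), then H2-Oa (-1.06) and Ifi30 (-0.97), the thiol reductase of antigen processing. Against WT cells at day 3 all 10 were lower with high DOX, whereas between KO zero DOX and WT cells only 1 of 10 differed, Ifi30 at 0.41. Of 40 other lysosomal genes 8 rose and 14 fell with high against zero DOX. This is near the 48.6% of all genes called (24.4% higher, 24.2% lower), so that the count is no result about the list. Mcoln2, a lysosomal channel (0.93), Igf2r, a receptor that delivers enzymes to lysosomes (0.82), and Neu1, a sialidase (0.48), rose most. Cd68 (-1.28), which is also a myeloid marker, Ctso (-0.81) and the chloride transporter Clcn7 (-0.73) fell most. Of 10 other pump subunits 2 rose and 5 fell, with Atp6ap2 at 0.55 and Atp6v0b at -0.59, and so short a list was not tested against the share of all genes.

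Among 23 genes of mTORC1 and lysosomal nutrient sensing, 4 rose and 6 fell with high against zero DOX (43.5%, beside 48.6% of all genes), which is no result about the list. Of the sestrins, which restrain mTORC1, Sesn2 rose (0.96 ± 0.10, adjusted p = 2.74e-08) and Sesn3 (-1.06) and Sesn1 (-0.53) fell, and Mtor rose (0.42 ± 0.07, adjusted p = 1.57e-05). Of 37 other autophagy genes 8 rose and 10 fell, a share (48.6%) equal to that of all genes, so that the count is no result about the list. Bnip3, a receptor for autophagy of mitochondria, rose most (1.82 ± 0.21, adjusted p = 1.25e-07), and Snap29 (-0.59), Atg10 (-0.54) and Rubcn (-0.53), the last an inhibitor of autophagosome maturation, fell. With stimulation of WT cells for 1 day, 3 of these 37 rose and 29 fell, 27 of the 40 other lysosomal genes fell and 4 rose, and 15 of the 23 nutrient-sensing genes fell and 7 rose. Of all genes 81.5% were called in this step (33.9% higher, 47.6% lower), and the lists were not tested against that share. Acp5, an acid phosphatase, changed by -3.05, Pik3r4, the regulatory subunit of the class III lipid kinase, by -2.41, and Sesn1 by -1.94, while Vcp, an ATPase of protein quality control, rose by 1.11. At day 0 Fnip1, a partner of folliculin, was 1.27 higher in KO than in WT cells and Mcoln2 1.15 lower (-1.15). At day 3 Acp5 was 1.56 higher and Gnptab, which tags enzymes for delivery to lysosomes, 0.79 lower (-0.79) in KO zero DOX than in WT cells.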

How the data were processed

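Total RNA of 30 samples, 6 of them unstimulated day 0 cells, was hybridised to Affymetrix mouse arrays. The intensities deposited by the authors came from D-Chip, whose model used only perfect-match probes, as the series text says, and the values are linear; MAS5 is also named in the submitters' processing notes, with no role. Array medians lay between 171 and 200, so depth is not a count here and the number of arrays limits precision. Gene names came from the platform table, in which 34945 of 45101 probe sets had 1 symbol, 932 several and 9160 none. Only sets with 1 symbol were named, and for 28 genes with several tested sets the brightest was used.

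Values were tested as log2(intensity + 16) with limma 3.58.1 in R 4.3.3, with 1 mean per group, all 30 arrays and 20 residual degrees of freedom. Benjamini-Hochberg adjustment ran over 12183 genes, and an adjusted p under 0.05 was called. No exact permutation test was used, since with 3 arrays a group its smallest p is 0.1. The fit was tested on simulated data.

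Genes given with values were, by rule, the called members without overlap between groups and of largest difference (8 or 4 in each direction), the MiT/TFE and Atg8 genes, Sqstm1, and up to 3 genes a direction from each wider list; any other was chosen after its values were seen. The members and lists were chosen with earlier results of these data known. KO arrays of the same replicate number deviated together (correlations of 0.337 to 0.799 over genes, each highest with its own number), while KO with WT and WT with WT arrays did not (-0.155 to 0.235). That pairing is read from the data, as the labels do not say whether KO cultures share mice. Alternatives were the pseudocount, filter, centring, quantile normalization, the replicate block, a sex term, array weights, the mean of all probe sets of a gene, fitting only the groups compared and leaving out each array; leaving out both doubted arrays was tried too, and a block within the 21 KO arrays was added after seeing the data. Figures used Python 3.11.15.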

Additional observations from a re-analysis of the deposited data

Results flagged for a closer look

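For 16 members the change between days 0 and 3 differed between KO zero DOX and WT cells by the interaction test of limma over all genes, each group having 3 arrays; the values below are log2 changes. The interaction of Gla was -0.86 (adjusted p = 0.00604), with -2.25 in KO and -1.39 in WT cells. Arsb gave -0.82 (adjusted p = 0.000726), from 0.18 in KO and 1.00 in WT cells, and Gusb -0.78 (adjusted p = 2.73e-06), from 0.49 and 1.27 in KO and WT cells. Glb1 (-0.53, adjusted p = 0.000195) gained 0.66 in KO and 1.19 in WT cells. Lipa (-0.53, adjusted p = 0.00618) changed by -0.54 in KO and -0.00 in WT cells.

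Among pump and membrane genes, Atp6v1a gave -0.63 (adjusted p = 0.000464), with 0.29 in KO and 0.92 in WT cells, and Atp6v0d1 -0.47 (adjusted p = 0.00547), with -0.62 in KO and -0.15 in WT cells. Atp6v1h gave -0.37 (adjusted p = 0.0254), from -0.34 in KO and 0.02 in WT cells. Lamp2 gave -0.34 (adjusted p = 0.0155), from 0.61 in KO and 0.94 in WT cells.

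Among autophagy genes, Ulk1 gave -0.56 (adjusted p = 0.002), from -0.40 in KO and 0.17 in WT cells. Gabarapl1 gave -0.49 (adjusted p = 0.00682), from -0.71 in KO and -0.22 in WT cells. Sqstm1 gave -0.45 (adjusted p = 0.0129), from -1.33 in KO and -0.88 in WT cells, and Map1lc3b -0.40 (adjusted p = 0.00165), from -0.47 in KO and -0.07 in WT cells. In the opposite direction stood Gabarapl2 at 0.32 (adjusted p = 0.0112; -0.12 in KO, -0.44 in WT cells), Tfe3 at 0.30 (adjusted p = 0.0212; 0.16 in KO, -0.14 in WT cells) and Ctss at 0.20 (adjusted p = 0.0283; 0.02 in KO, -0.18 in WT cells). Leaving out any of 4 arrays ended the call of Tfe3 (lowest 0.22), and any of 6 that of Ctss (lowest 0.17). Averaging probe sets ended that of Gabarapl2 (0.26, adjusted p = 0.0636). Some interactions lay mostly in day 0, where KO replicates 2 and 3 are in doubt. Means in KO and WT cells were 10.41 and 9.82 at day 0, then 10.70 and 10.74 at day 3, for Atp6v1a. For Sqstm1 they were 12.54 and 12.02, then 11.21 and 11.14. Gabarapl1 and Atp6v0d1 also lay closer at day 3 than at day 0.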

How the results depend on the processing

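Over 470 named values, 7925 recomputed values kept their direction and side of the threshold, 473 fell short of it and 5 reversed, all 5 with the mean of a gene's probe sets: Ctsc -1.57 and Atp6v1h -1.02 and Ciita 0.009 for WT day 1 against day 0, Ctsc -0.62 for WT day 3 against day 0, and Atp6v1g1 -0.016 for KO day 3 against day 0; the cause was not tested. Fitting only the groups compared, with fewer arrays, left 3 members called for KO against WT at day 0 (22 in all arrays), 3 for high against low DOX (7) and 9 for the interaction (16). Array weights gave 21 for high against low DOX and 2 for high against zero DOX at day 1 (0), where the replicate block, the sex term and the block within KO arrays each gave 1. The replicate block moved no other count of members by over 1.5 times. Leaving out 1 array at a time gave 13 to 26 members for KO against WT at day 0, 9 to 14 at day 1 (18) and 12 to 14 at day 3 (15), 13 to 23 for the interaction, 4 to 8 for high against low DOX, 0 to 1 for high against zero DOX at day 1, and 21 to 25 and 14 to 21 for high and low against zero DOX at day 3. With median centring, high against low DOX gave 1 higher and 6 lower. With 3 arrays a group, dim genes and small differences are limited most.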
